A study of Mus with 10 samples.

Results

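A set of 8 receptors that guide lymphocytes into, within and out of tissues was examined in liver type 1 innate lymphoid cells (ILC1s) with and without NKp46. They comprise 6 chemokine receptors (*Cxcr3*, *Cxcr4*, *Cxcr6*, *Ccr2*, *Ccr7* and *Cx3cr1*) and 2 receptors for the lipid sphingosine 1-phosphate (S1P; *S1pr1* and *S1pr5*). They were taken by gene symbol from the deposited gene table, in which they are 8 of 24564 genes.

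The study compared liver ILC1s of the genotypes *Ncr1*+/+ and *Ncr1*gfp/gfp, with 5 RNA sequencing libraries each, from C57BL/6 mice that were male or female and 6 to 8 weeks of age. In *Ncr1*gfp/gfp mice, *gfp* stands in the place of *Ncr1*, the gene of NKp46, so that GFP marks the cells that would make NKp46. *Ncr1*+/+ ILC1s were gated as lineage-negative cells with NK1.1, NKp46 and CD49a but no CD49b, and in *Ncr1*gfp/gfp mice GFP replaced NKp46 in the same gate. The genotype and the marker used for the sort can therefore not be told apart. The labels do not say whether a library came from 1 mouse or from a pool, nor its sex, so p-values measure the spread between these libraries.

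Chemokine receptors are G protein-coupled receptors that make a cell move towards or stay near a source of their chemokine. In the liver, CXCL16 on the sinusoidal lining holds CXCR6-bearing lymphocytes in place, and CXCR6 is a usual mark of tissue-resident ILC1s. S1P is plentiful in blood and lymph and scarce in tissue, and lymphocytes with surface S1PR1 or S1PR5 follow it out of an organ, whereas resident lymphocytes keep these receptors low.

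Depth and identity of the libraries were checked first. The total count was 17996935 to 22623133 in *Ncr1*+/+ and 15796253 to 21975879 in *Ncr1*gfp/gfp libraries. *Ncr1* itself lay between 1913 and 2144 TMM-scaled CPM (counts scaled to a common library size) in *Ncr1*+/+ and between 141 and 356 CPM in *Ncr1*gfp/gfp libraries. Levels below are on this CPM scale, and 3 counts, used as the limit of detection, correspond to between 0.132 and 0.190 CPM. The summed CPM of 7 ILC1 markers other than *Ncr1* and *Cxcr6* was 4677 to 4813 in *Ncr1*+/+ and 4638 to 4815 in *Ncr1*gfp/gfp ILC1s. Within this sum *Il7r* was lower (166 ± 31.7 against 84.6 ± 33.4 CPM) and *Itga1*, the gene of CD49a, higher (779 ± 30.4 against 971 ± 35.1 CPM; SD, n = 5 each) in *Ncr1*gfp/gfp ILC1s, both with adjusted p-values under 0.05 (edgeR). Of 9 markers of conventional NK cells, 2 were at or under the limit of detection in every library, and the sum was higher in all *Ncr1*gfp/gfp libraries (218 to 322 CPM) than in all *Ncr1*+/+ libraries (166 to 201 CPM). *Itgam*, the gene of CD11b, made up most of this difference, at 96.0 ± 18.7 against 49.4 ± 6.50 CPM (SD, n = 5 each). The sum of 8 T cell markers (461 to 579 against 633 to 835 CPM, largely *Cd3g*) and that of 6 dendritic cell markers (1329 to 1461 against 1651 to 1767 CPM, largely *Itgax*) were also higher in every *Ncr1*gfp/gfp library. Of the dendritic cell markers 2 were tested, and they differed in direction, with log2 fold changes of 0.28 for *Itgax* and -0.19 for *Zbtb46* (edgeR). All 5 tested T cell markers had a log2 fold change above 0, and *Cd3g*, *Cd3e* (mean 5.72 in *Ncr1*+/+ and 21.1 CPM in *Ncr1*gfp/gfp ILC1s) and *Cd8a* (6.69 and 19.4 CPM) had an adjusted p-value under 0.05 (edgeR). The part of these marker lists in the results below was not tested.

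The 8 receptors fell into an abundant and a scarce set. With the CPM divided by the summed exon length in kilobases, so that genes can be compared, *Cxcr6* led the *Ncr1*+/+ ILC1s at 246 ± 22.3, followed by *Cxcr3* at 190.5 ± 10.5 and *Ccr2* at 73.9 ± 8.12 CPM per kilobase (SD, n = 5 each). The ranges of these 3 genes over the libraries did not overlap. A wide gap separated them from *Cxcr4* (2.09 ± 0.76) and *S1pr5* (1.86 ± 0.26 CPM per kilobase), which overlapped each other. *Cx3cr1* (0.584 ± 0.30), *S1pr1* (0.270 ± 0.23) and *Ccr7* (0.0323 ± 0.049 CPM per kilobase) came last, each overlapping the next.

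In *Ncr1*gfp/gfp ILC1s the leading 3 kept their order, at 215 ± 37.0 for *Cxcr6*, 179.8 ± 14.3 for *Cxcr3* and 45.0 ± 10.5 CPM per kilobase for *Ccr2*. Here the ranges of *Cxcr6* and *Cxcr3* overlapped, and *Ccr2* again stood apart from its neighbours. *S1pr5* (1.51 ± 0.66), *Cxcr4* (0.978 ± 0.62), *Cx3cr1* (0.621 ± 0.38) and *S1pr1* (0.366 ± 0.15 CPM per kilobase) overlapped one after the other, and no read was counted on *Ccr7*.

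**Figure D1:**
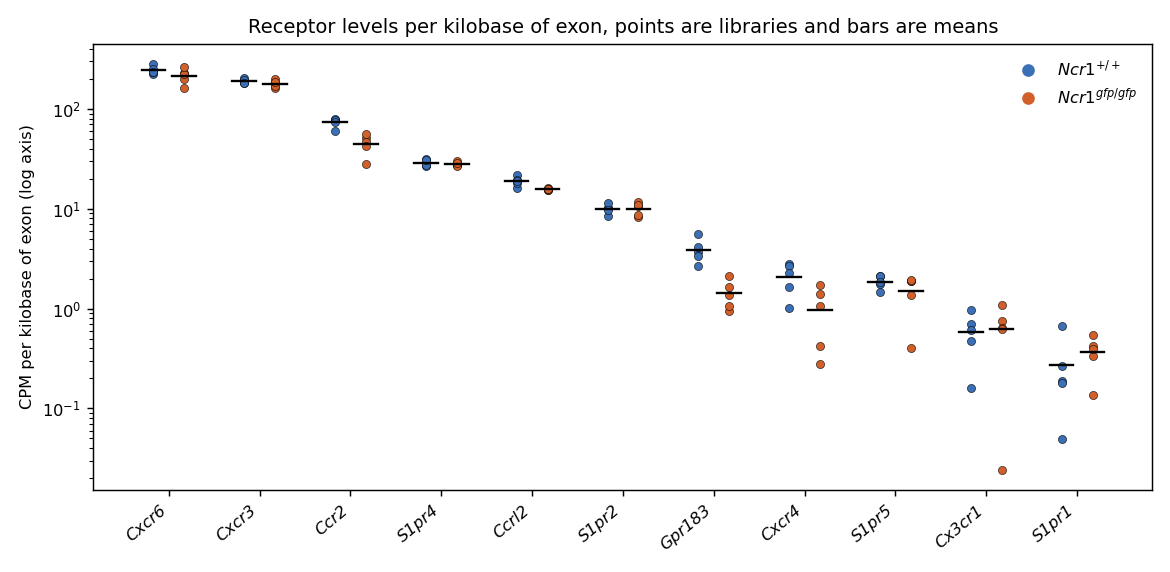
Level of the 7 tested receptors of the 8 and of *S1pr4*, *Ccrl2*, *S1pr2* and *Gpr183*, in CPM per kilobase of exon on a log axis. Each library is 1 point and a bar marks the mean, with *Ncr1*+/+ in blue and *Ncr1*gfp/gfp in orange. *Cxcr6* and *Cxcr3* lie well above the other genes in both genotypes. *Ccr2* lies above the rest in *Ncr1*+/+ libraries. In *Ncr1*gfp/gfp libraries its range (28.2 to 55.9) overlaps that of *S1pr4* (27.1 to 30.2 CPM per kilobase). The S1P receptors *S1pr4* and *S1pr2* lie above *S1pr5* and *S1pr1*.

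The genotypes were then compared gene by gene. Of the 8 receptors, 7 passed edgeR's filter on low counts and were tested, and *Ccr7* was not. *Ccr2* was the single one of the 7 with an adjusted p-value under 0.05, against 1.35% of the 11463 genes tested, 0.785% lower and 0.567% higher (edgeR's quasi-likelihood test, Benjamini-Hochberg adjustment over all of them). It also passed the fold change limits given in the methods of the study, above 1.5 or below 0.7, as did 0.733% of all tested genes, 0.532% lower and 0.201% higher in *Ncr1*gfp/gfp ILC1s. At an absolute log2 fold change above 1, the limit that the results of the study name, 0 of the 7 were called. Before adjustment, 3 of the 7 (*Ccr2*, *Cxcr4* and *Cxcr6*, each lower) had a p-value under 0.05 (edgeR). Over all tested genes 11.4% had one in either direction, with 677 of the 11463 lower. The fitted log2 fold change of *Ncr1*gfp/gfp against *Ncr1*+/+ was below 0 for 5 of the 7 and for 49.3% of all tested genes, and its median was -0.19 over the 7 and 0.0027 over all.

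**Figure D2:**
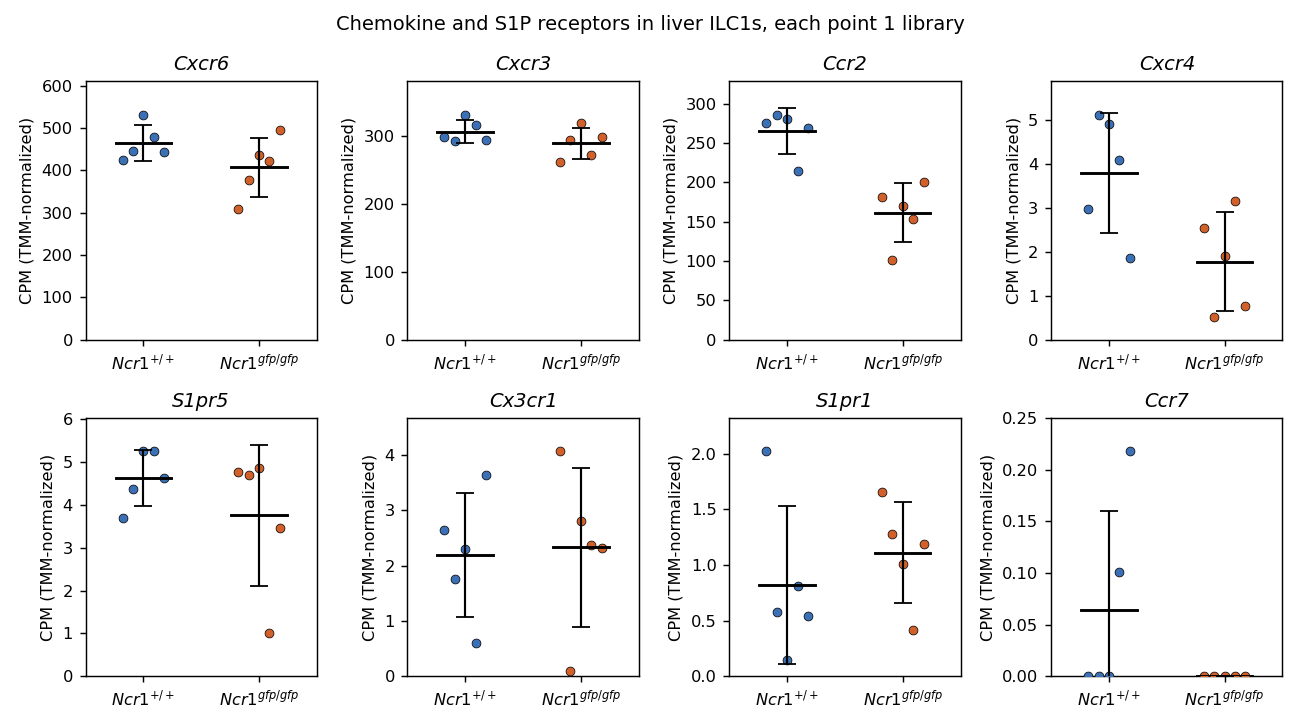
CPM of the 8 receptors in each library (points), with the mean (line) and SD (error bars) of 5 libraries per genotype, each panel starting at 0 on its own scale. The *Ncr1*+/+ and *Ncr1*gfp/gfp points of *Ccr2* do not overlap, and those of the other 7 receptors do.

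*Ccr2* encodes the receptor for CCL2 and related monocyte chemoattractants, best known for leading monocytes out of the bone marrow and into inflamed tissue. The deposited table places it at 124016922 to 124023879 of chromosome 9, plus strand, in a genome build that it does not name. Its level was 276, 286, 281, 214 and 269 CPM in *Ncr1*+/+ replicates 1 to 5. In *Ncr1*gfp/gfp replicates 1 to 5 it was 182, 101, 169.6, 154 and 201 CPM. Every *Ncr1*gfp/gfp library was thus below every *Ncr1*+/+ library, with replicate 4 the lowest of the *Ncr1*+/+ and replicate 2 the lowest of the *Ncr1*gfp/gfp ILC1s. Values that do not overlap in this direction were found for 1.82% of all tested genes.

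The *Ccr2* mean fell from 265 ± 29.1 to 161 ± 37.8 CPM (SD, n = 5 each), or to 60.9% of the *Ncr1*+/+ level. The log2 fold change was -0.72 with a 95% interval from -0.97 to -0.46 (adjusted p = 0.00258, edgeR's quasi-likelihood test), and the gene ranked 43 by p-value among the 11463. The two-sided exact permutation test of the CPM gave p = 0.00794, the smallest that 5 libraries against 5 allow. In a bulk sample, fewer *Ccr2*-expressing cells and less *Ccr2* RNA per cell cannot be told apart.

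Because *Ccr2* also marks monocytes, the level of 10 monocyte and macrophage markers was set beside it. Their summed CPM ran from 10.7 to 82.3 in *Ncr1*+/+ and from 5.67 to 56.8 in *Ncr1*gfp/gfp libraries (two-sided exact permutation test, p = 0.50). All 7 of these markers that were tested had a log2 fold change below 0, as 49.3% of all tested genes had, with a median of -0.42, and none had an adjusted or unadjusted p-value under 0.05 (edgeR). *Lyz2*, the lysozyme gene of myeloid cells, had a mean of 11.9 CPM in *Ncr1*+/+ and 9.19 CPM in *Ncr1*gfp/gfp ILC1s. The *Ncr1*+/+ library with the lowest sum, replicate 1 at 10.7 CPM, had 276 CPM of *Ccr2*, and the one with the highest, replicate 5 at 82.3 CPM, had 269 CPM. Among *Ncr1*gfp/gfp libraries, the lowest sum and the lowest *Ccr2* fell on the same library, replicate 2. Without it, the log2 fold change of *Ccr2* was -0.59 (adjusted p = 0.00088, edgeR's quasi-likelihood test).

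*Ccr2* lies in a cluster of chemokine receptor genes on chromosome 9 that also holds *Cxcr6*, 301 kb before it. Among the 12 genes that start at or up to 600 kb before the start of *Ccr2*, itself included, 6 were tested. *Ccr2* was the one with an adjusted p-value under 0.05. The other 5 (*Sacm1l*, *Lztfl1*, *Ccr9*, *Fyco1* and *Cxcr6*) had log2 fold changes between -0.19 and 0.87 and adjusted p-values of 0.439 or more (edgeR's quasi-likelihood test). *Ccr3*, *Xcr1* and *Ccr1*, named after their values were seen, were too low to test. The counts of *Ccr3* in replicates 1 to 5 were 4, 22, 23, 9 and 3 for *Ncr1*+/+ ILC1s but 0, 0, 0, 2 and 3 for *Ncr1*gfp/gfp ILC1s. *Xcr1* had 1, 10, 14, 1 and 0 counts in *Ncr1*+/+ libraries and no count in the *Ncr1*gfp/gfp libraries. *Ccr1* went the other way. It was absent from every *Ncr1*+/+ library, whereas *Ncr1*gfp/gfp replicate 1 held 13 counts, replicate 5 a single one and the others none. How often untested genes show such differences was not examined.

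**Figure D3:**
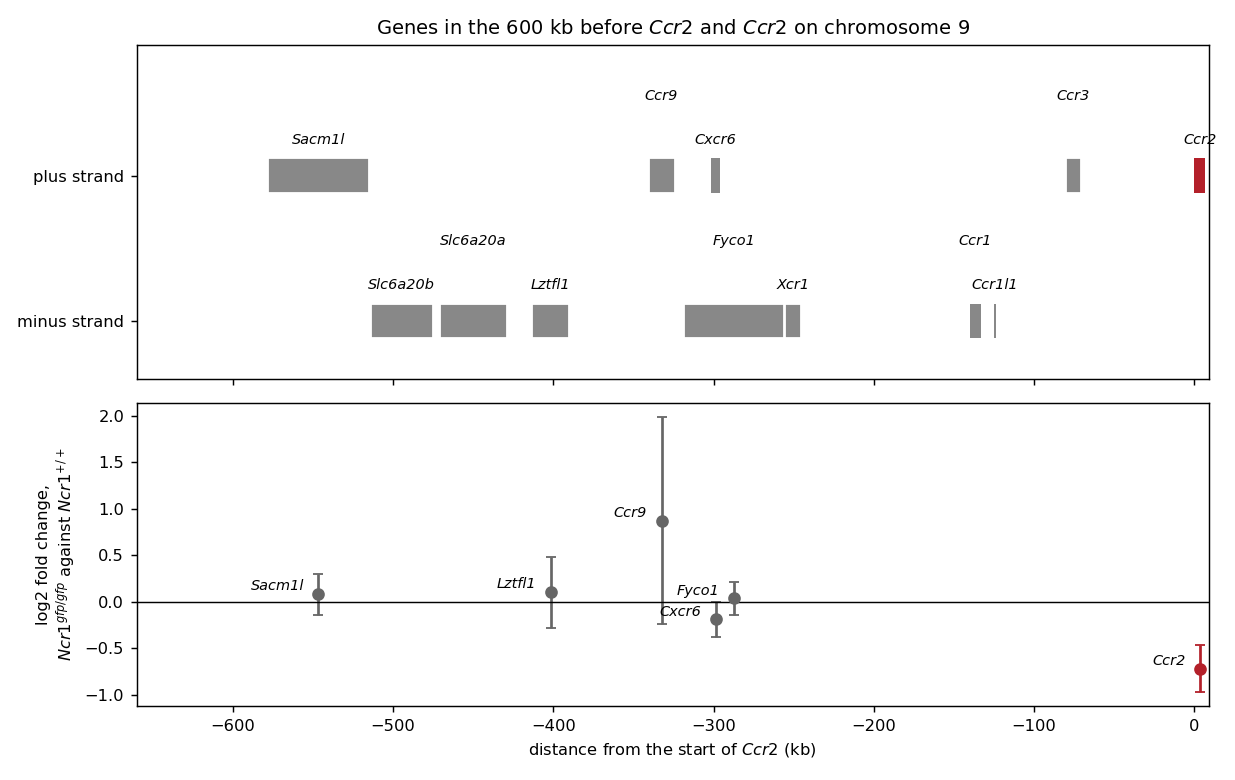
Top, position and strand of the genes that start at or up to 600 kb before *Ccr2* on chromosome 9, as distance from the start of *Ccr2* in kilobases. Bottom, log2 fold change of *Ncr1*gfp/gfp against *Ncr1*+/+ with its 95% interval for the 6 tested genes. The interval of *Ccr2* (red) lies wholly below 0 at -0.97 to -0.46, that of *Cxcr6* ends just under 0, and the other 4 cross 0.

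The genes whose log2 CPM followed that of *Ccr2* most closely over the 10 libraries, among 8254 genes with a mean of at least 10 CPM, were *Sh3kbp1* and *Cnr2*. *Sh3kbp1* encodes an adaptor in receptor endocytosis, and its Pearson correlation with *Ccr2* was 0.98, or 0.95 after the mean of each genotype was taken off. *Cnr2*, the gene of the cannabinoid receptor CB2, another G protein-coupled receptor of leukocytes, gave 0.97 and 0.94. The 10 points share 2 genotypes and the same scaling, so these values describe likeness only. Both genes were lower in *Ncr1*gfp/gfp ILC1s, *Sh3kbp1* at 152 against 193 CPM (log2 fold change -0.35) and *Cnr2* at 9.12 against 17.2 CPM (-0.92). They were picked by likeness to *Ccr2* over both genotypes, and *Ccr2* was itself lower. Their lower levels therefore follow largely from the choice and are no separate result.

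*Cxcr6*, the receptor for CXCL16, was the most abundant of the 8. It sits at 123715595 to 123720872 of chromosome 9, plus strand, within the span of *Fyco1*, a gene of the minus strand. Its level was 423, 447, 532, 478 and 444 CPM in *Ncr1*+/+ and 308, 377, 437, 421 and 495 CPM in *Ncr1*gfp/gfp replicates 1 to 5. In all, 3 *Ncr1*gfp/gfp libraries (replicates 1, 2 and 4) were below the lowest *Ncr1*+/+ library, while replicate 5 was above 4 of the 5.

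The means of *Cxcr6* were 465 ± 42.2 and 408 ± 70.0 CPM (SD, n = 5 each), and the log2 fold change was -0.19 with a 95% interval from -0.38 to just under 0. It did not pass the adjusted test (adjusted p = 0.439, edgeR's quasi-likelihood test), and the two-sided exact permutation test of the CPM gave p = 0.167. The library kit does not mark strand, so reads of *Fyco1* over the *Cxcr6* exons cannot be told from those of *Cxcr6*. *Fyco1* had 147 ± 7.45 and 151 ± 23.9 CPM (SD, n = 5 each). *Pde6d* and *Galnt4* followed *Cxcr6* most closely over the 10 libraries, with Pearson correlations of 0.96 and 0.94.

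*Cxcr3* encodes the receptor for the interferon-induced chemokines CXCL9, CXCL10 and CXCL11 and sits at 98926874 to 98929486 of chromosome X, minus strand. It was measured at 298, 292, 331, 316 and 294 CPM in *Ncr1*+/+ replicates 1 to 5. The *Ncr1*gfp/gfp replicates had 261, 295, 319.6, 272 and 299 CPM. The ranges overlapped widely, and the libraries differed little within a genotype, with an SD of 16.9 CPM around 306 in *Ncr1*+/+ and of 23.0 CPM around 289 in *Ncr1*gfp/gfp ILC1s (n = 5 each). The log2 fold change was -0.08 with a 95% interval from -0.21 to 0.04 (adjusted p = 0.685, edgeR's quasi-likelihood test).

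The ratio of *Cxcr6* to *Cxcr3* counts was 1.51 ± 0.066 in *Ncr1*+/+ and 1.41 ± 0.195 in *Ncr1*gfp/gfp ILC1s (SD, n = 5 each), a difference within the spread (two-sided exact permutation test, p = 0.294). *Cdk2ap2* (0.91) and *Ypel1* (0.90) had the highest Pearson correlations with *Cxcr3* over the 10 libraries, and neither had an adjusted p-value under 0.05 between the genotypes.

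*Cxcr4*, at 130484776 to 130488876 of chromosome 1, minus strand, encodes the receptor for CXCL12, which keeps many leukocytes in the bone marrow. It was scarce, at 2.97, 5.12, 4.90, 4.09 and 1.85 CPM in *Ncr1*+/+ and 2.54, 0.503, 1.91, 3.15 and 0.774 CPM in *Ncr1*gfp/gfp replicates 1 to 5. These values rest on 34 to 116 counts per *Ncr1*+/+ and 11 to 53 counts per *Ncr1*gfp/gfp library. Of the *Ncr1*+/+ libraries, 3 were above all *Ncr1*gfp/gfp libraries, and 2 lay among them.

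Mean *Cxcr4* CPM was 3.79 ± 1.37 for *Ncr1*+/+ and 1.77 ± 1.13 for *Ncr1*gfp/gfp ILC1s (SD, n = 5 each), the latter 46.9% of the former. Its fitted log2 fold change of -1.10 was larger than that of *Ccr2*, but the 95% interval from -2.05 to -0.15 was wide. It did not pass adjustment (adjusted p = 0.331, edgeR's quasi-likelihood test), and the two-sided exact permutation test gave p = 0.0556.

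*Cx3cr1*, the receptor for the membrane-bound chemokine fractalkine and a marker of patrolling monocytes and mature NK cells, sits at 119957801 to 119977414 of chromosome 9, minus strand. The *Ncr1*+/+ replicates 1 to 5 had 47, 40, 46, 12 and 67 counts on it, and the *Ncr1*gfp/gfp replicates had 64, 2, 53, 40 and 39. Replicate 2 of *Ncr1*gfp/gfp was thus under the limit of detection, and the other 4 of that genotype lay within or just above the *Ncr1*+/+ range. The mean CPM was 2.19 ± 1.12 for *Ncr1*+/+ and 2.33 ± 1.44 for *Ncr1*gfp/gfp ILC1s (SD, n = 5 each). The log2 fold change of 0.09 had a 95% interval from -1.15 to 1.32 (adjusted p = 0.978, edgeR's quasi-likelihood test), and its sign turned when some single libraries were left out. *Ncr1*gfp/gfp replicate 2 was also the library with the lowest monocyte and macrophage marker sum, 5.67 CPM.

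*Ccr7*, which leads naive lymphocytes and mature dendritic cells to lymph nodes along CCL19 and CCL21, sits at 99005513 to 99016391 of chromosome 11, minus strand. It had 2 counts in *Ncr1*+/+ replicate 4, 4 counts in replicate 5 and none in the other 8 libraries. Only replicate 5, at 0.218 CPM, exceeded the limit of 3 counts, which for the *Ncr1*gfp/gfp libraries allows a level of up to between 0.137 and 0.190 CPM. No fold change is given.

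Both S1P exit receptors were scarce. *S1pr5*, which mature NK cells use to leave bone marrow and lymph nodes, sits at 21047361 to 21052887 of chromosome 9, minus strand. Its level was 3.70, 4.37, 5.25, 5.25 and 4.63 CPM in *Ncr1*+/+ and 4.76, 4.71, 4.87, 1.01 and 3.45 CPM in *Ncr1*gfp/gfp replicates 1 to 5. Of the *Ncr1*gfp/gfp libraries, 3 fell within the *Ncr1*+/+ range and 2 below it, replicate 4 far below with 17 counts. The log2 fold change was -0.30 with a 95% interval from -1.0 to 0.40 (adjusted p = 0.828, edgeR's quasi-likelihood test), and -0.059 without *Ncr1*gfp/gfp replicate 4. With voom and sample quality weights it was -0.55, and the adjusted p-value was not under 0.05 in any alternative.

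*S1pr1*, the receptor by which recirculating lymphocytes leave lymphoid organs, sits at 115413351 to 115417973 of chromosome 3, minus strand. Its counts were 36, 13, 3, 16 and 10 in *Ncr1*+/+ replicates 1 to 5, and the *Ncr1*gfp/gfp replicates had 26, 28, 19, 7 and 20. The highest and the lowest library were both *Ncr1*+/+, replicates 1 and 3. The means were 0.819 ± 0.71 and 1.11 ± 0.45 CPM (SD, n = 5 each), with a log2 fold change of 0.44 and a 95% interval from -0.85 to 1.73 (adjusted p = 0.863, edgeR's quasi-likelihood test). Without *Ncr1*+/+ replicate 1 it was 1.08, without *Ncr1*+/+ replicate 3 it was 0.17, and with voom 0.90, none with an adjusted p-value under 0.05.

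**Figure D4:**
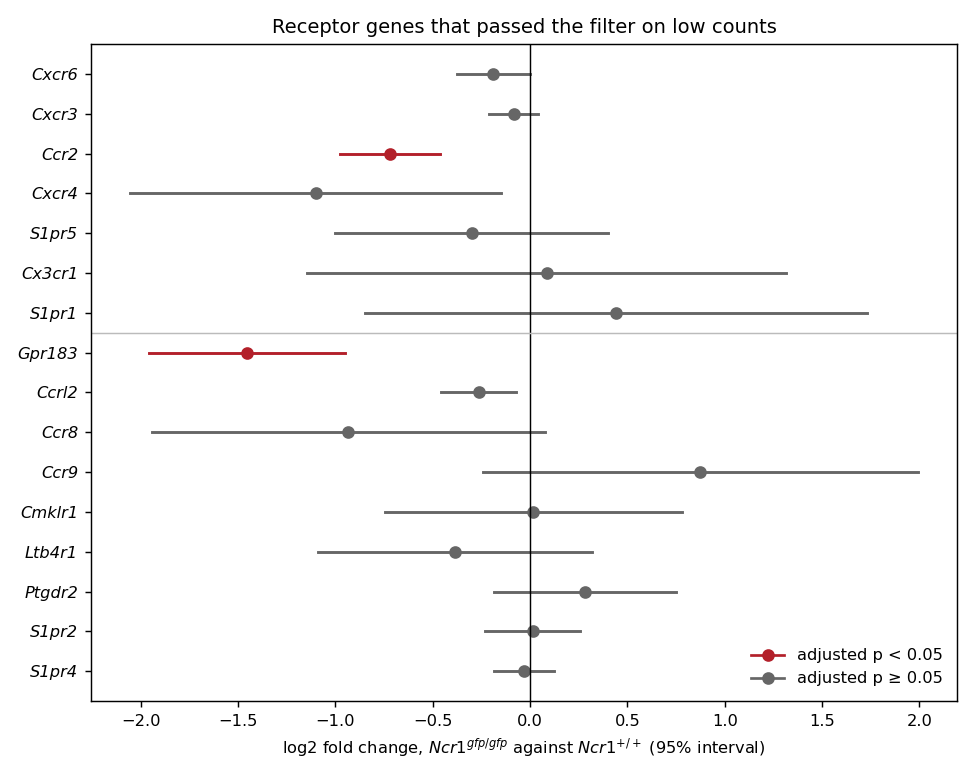
Log2 fold change of *Ncr1*gfp/gfp against *Ncr1*+/+ with its 95% interval (horizontal bar) for the 7 tested receptors of the 8 and further tested chemoattractant and S1P receptors, with adjusted p-values under 0.05 in red. *Ccr2* at -0.72 and *Gpr183* at -1.45 are red, and the scarce genes *Cx3cr1* and *S1pr1* have the widest intervals.

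Other receptors of the same kind gave a frame for these values. Of 25 further chemokine and chemoattractant receptor genes examined, 7 passed the filter and 18 did not. One of the 7 had an adjusted p-value under 0.05, against 1.35% of all tested genes. It was *Gpr183*, the receptor for oxysterols that positions lymphocytes and dendritic cells in tissue. Its level was 10.8, 16.4, 10.0, 12.2 and 7.89 CPM in *Ncr1*+/+ and 2.79, 3.11, 4.82, 6.25 and 3.99 CPM in *Ncr1*gfp/gfp replicates 1 to 5. No *Ncr1*gfp/gfp library reached the lowest *Ncr1*+/+ library, and the log2 fold change was -1.45 with a 95% interval from -1.96 to -0.95 (adjusted p = 0.00197, edgeR's quasi-likelihood test). *Ccrl2*, which binds chemerin without signalling, had 42.4 ± 4.61 and 35.4 ± 0.80 CPM (SD, n = 5 each; log2 fold change -0.26, adjusted p = 0.210, edgeR). *Ptgdr2*, a receptor for prostaglandin D2, had means of 8.30 CPM in *Ncr1*+/+ and 10.1 CPM in *Ncr1*gfp/gfp ILC1s (adjusted p = 0.729, edgeR). Over the 7, 4 log2 fold changes were below 0 and 3 above, against 49.3% below 0 over all tested genes, with a median of -0.26.

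**Figure D5:**
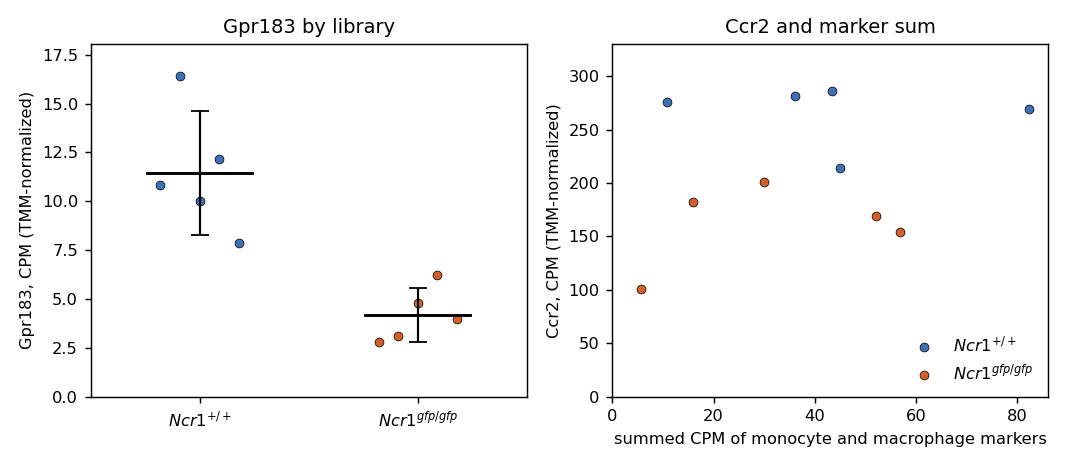
Left, CPM of *Gpr183* in each library (points), with the mean (line) and SD (error bars) of 5 libraries per genotype, from 0. Right, CPM of *Ccr2* against the summed CPM of 10 monocyte and macrophage markers, 1 point per library, *Ncr1*+/+ in blue and *Ncr1*gfp/gfp in orange. All *Ncr1*gfp/gfp points lie below all *Ncr1*+/+ points on both vertical axes, and the marker sums of the genotypes overlap (10.7 to 82.3 and 5.67 to 56.8 CPM).

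The remaining S1P genes did not pass the test. Of 13 further receptors, transporters and enzymes of S1P, 8 were tested, 5 with a log2 fold change below 0 and 3 above, and none had an adjusted p-value under 0.05 or an unadjusted one (edgeR), nor an adjusted one in any of the 19 alternatives. *S1pr4*, a receptor of lymphocytes, had 69.1 ± 5.25 and 67.6 ± 2.82 CPM, and *S1pr2*, which often opposes migration and was named after its values were seen, had 28.0 ± 2.97 and 28.3 ± 4.19 CPM (SD, n = 5 each). Per kilobase, both lay above *S1pr5* and *S1pr1* in every library. *Sgpl1* and *Sgpp1*, which degrade and dephosphorylate S1P, had 89.2 and 70.9 CPM in *Ncr1*+/+ and 94.1 and 77.0 CPM in *Ncr1*gfp/gfp ILC1s, and *Sphk2*, a kinase that makes it, had 48.3 and 46.3 CPM.

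A list of 14 regulators of S1P receptors or of other trafficking receptors was tested in full. None had an adjusted p-value under 0.05, and 3 had an unadjusted one, each lower (edgeR), against 11.4% of all tested genes in either direction. The most abundant were *Grk2*, *Tbx21*, *Runx3* and *Arrb2*. *Grk2*, a kinase that desensitises S1P receptors, had 588 CPM in *Ncr1*gfp/gfp ILC1s (log2 fold change -0.03). *Tbx21*, the gene of T-bet, had 452 CPM in *Ncr1*+/+ and 414 CPM in *Ncr1*gfp/gfp ILC1s. In the same order, *Runx3* had 334 and 355 CPM, and *Arrb2*, a beta-arrestin, had 279 and 301 CPM. *Cd69*, whose product takes S1PR1 off the surface, had 74.1 and 79.6 CPM. *Cd69*, *Klf2* and *Klf3* were named after their values were seen. *Klf2*, an activator of *S1pr1*, had 82.6, 80.7, 28.0, 26.9 and 18.7 CPM in *Ncr1*+/+ and 30.4, 26.7, 18.6, 28.8 and 25.6 CPM in *Ncr1*gfp/gfp replicates 1 to 5. Only *Ncr1*+/+ replicates 1 and 2 lay outside the range of the others, and the log2 fold change of -0.87 had an adjusted p of 0.207 (edgeR). *Klf3*, a repressor of the same family, had 62.5 ± 7.23 and 44.1 ± 10.7 CPM (SD, n = 5 each; log2 fold change -0.51, adjusted p = 0.0614, edgeR), and it passed the threshold under some of the alternative settings.

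Of 39 genes that carry or end the signal of these receptors, 38 were tested, 23 with a log2 fold change below 0, where 49.3% of all tested genes lay, and 15 above, with a median of -0.04 and none with an adjusted p-value under 0.05. Before adjustment, 4 lower and 1 higher had a p-value under 0.05 (edgeR), against 11.4% of all tested genes. *Tln1* (talin), *Dock2*, *Rac2* and *Coro1a*, which drive integrin activation and actin remodelling in leukocytes, had 1991, 1482, 1061 and 1051 CPM in *Ncr1*+/+ and 1921, 1437, 1044 and 988 CPM in *Ncr1*gfp/gfp ILC1s. They are the 4 of the list with the highest mean CPM.

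Of 12 listed chemokine ligands of these receptors, 10 were found in the table and 3 were tested, *Cxcl9*, *Cxcl10* and *Cxcl16*, at 1.80, 8.98 and 1.11 CPM in *Ncr1*+/+ and 1.42, 5.11 and 0.384 CPM in *Ncr1*gfp/gfp ILC1s. All 3 had a log2 fold change below 0, against 49.3% of all tested genes. Of the 3, 2 had an unadjusted p-value under 0.05 (edgeR), against 11.4% of all tested genes in either direction. None passed adjustment with edgeR or in any of the 19 alternatives.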

How the data were processed

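Liver ILC1s of 5 *Ncr1*+/+ and 5 *Ncr1*gfp/gfp mice or pools were sequenced for 51 cycles from one end after cDNA amplification from 2 ng of RNA. After trimming, the authors aligned reads with STAR, and the counts they deposited are HTSeq counts per gene, made with default parameters and not normalized. These defaults leave out reads that map to several places and count by strand, whereas the kit does not mark strand, so paralogs and overlapping genes are uncertain. The deposited exon length was used for levels per kilobase, and gene names were matched through RefSeq. Groups came from the source names of the samples, and count columns were matched to samples by the sample titles.

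Genes were filtered with filterByExpr, scaled by TMM and tested by quasi-likelihood in edgeR (version 4.0.16, R version 4.3.3), with genotype as the only term, after a check on simulated data. Benjamini-Hochberg adjustment covered 11463 genes. Called genes had a fold change above 1.5 or below 0.7 as well as an adjusted p-value under 0.05. For single values, the exact permutation test was two-sided and covered all 252 assignments of 5 libraries of 10. Intervals cover 95%, and limits from 3 counts cover counting error only. Alternatives were DESeq2 1.42.0, limma 3.58.1 (voom), edgeR's likelihood ratio test, other scalings and filters, another fold change limit, a replicate block and each library left out. Wherever voom is named, it was run with sample quality weights.

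The receptors, lists and markers were chosen with earlier results of these data known. Some items are not reported here. Named genes were the 8 receptors and the 2 genes most like each abundant receptor. From each other list except the marker lists, those with an adjusted p-value under 0.05 and up to 4 of the most abundant were named. Of the ILC2 and ILC3 markers, 3 were tested. One of them, not named here, was lower with an adjusted p-value under 0.05 (edgeR), against 1.35% of all tested genes. *Klf2*, *Klf3*, *Cd69*, *S1pr2*, *Ccr3*, *Xcr1* and *Ccr1* were named after their values were seen. Libraries were treated as unpaired, since the deviations from the genotype means of same-numbered libraries correlated at -0.017 to 0.044. These values cannot show that same-numbered libraries were handled apart. Libraries of one genotype all differed from each other by more than sampling noise. Summed CPM of the other marker lists, *Ncr1*+/+ before *Ncr1*gfp/gfp, was 0.561 to 5.99 and 2.49 to 4.98 for B cells, 0 to 1.41 and 0 to 12.3 for neutrophils, 194 to 216 and 149 to 195 for ILC2s and ILC3s, 134 to 177 and 123 to 202 for hepatocytes and 113 to 147 and 128 to 151 for liver endothelium.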

Additional observations from a re-analysis of the deposited data

Results flagged for a closer look

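Of 46 groups of 5 libraries examined for a value far from the rest, 4 held one, and chance gives about 1 in 20 groups, here 2.3. *Ccr2* in *Ncr1*+/+ replicate 4 was 214 CPM, when the next lowest *Ncr1*+/+ library had 269 CPM. In the same library the summed NK cell markers were 166 CPM, when the next had 192 CPM. The summed neutrophil markers in *Ncr1*gfp/gfp replicate 3 were 12.3 CPM, against 2.62 CPM in the next, and the summed hepatocyte markers in *Ncr1*+/+ replicate 1 were 177 CPM, against 146 CPM.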

How the results depend on the processing

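*Ccr2* kept its direction and its adjusted p-value under 0.05 in all 19 alternatives, with log2 fold changes of -0.81 to -0.59 with a library left out and an adjusted p of at most 0.0222 in any of them. *Gpr183* did so too, at -1.64 to -1.29 with a library left out and an adjusted p of at most 0.0123. With an absolute log2 fold change above 1 as the limit, 0 of the receptors and 23 of all genes were called. Over all genes, 131 were called without a filter, 138 by the likelihood ratio test and 60 to 98 with a library left out, against 84. An adjusted p-value under 0.05 was reached by 299 genes with DESeq2, 264 without a filter, 264 by the likelihood ratio test, 95 without the libraries highest in hepatocyte markers (added after the data were seen) and 100 to 160 with a library left out (100 without *Ncr1*+/+ replicate 3, 102 without *Ncr1*+/+ replicate 1), against 155. Fewer samples enter the last 2 of these settings, and otherwise the cause was not tested.

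*Cx3cr1* turned to -0.025 with voom and to -0.11 with the replicate block, and ran from -0.21 to 0.40 with a library left out, below 0 without *Ncr1*+/+ replicate 4 (-0.15) or *Ncr1*gfp/gfp replicate 1 (-0.21). Of the regulators, 1 passed with DESeq2, 1 by the likelihood ratio test and 1 with at least 10 counts in every library (*Klf3* each time), 2 without a filter (*Klf2*, *Klf3*), and 0 to 2 with a library left out, namely 2 without *Ncr1*+/+ replicate 5 and 1 each without *Ncr1*gfp/gfp replicates 3 and 5. Of the signalling genes, 1 passed with DESeq2 (*Pik3r5*) and 2 without a filter (*Grk3*, *Pik3r5*). With the replicate block no count over the receptors or the other lists changed, and over the whole table it gave 87 called genes and 156 with an adjusted p-value under 0.05, and 1 of 5 libraries correlated best with its own number. Genes too low for a setting have no value there. Scarce receptors rest on few counts, which limits their precision.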
